A study of Homo sapiens with 6 samples.

Results

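The comparison of IL-6 against control at 6 h consists of 2 RNA-seq libraries of THP-1 cells, a human monocytic line established from acute monocytic leukaemia. They were chosen by their labels from the 6 libraries of the series, which are a control and an IL-6 culture at 6 h, 24 h and 48 h with 1 library each. The 2 libraries of 6 h differ in the agent named in the labels, and the IL-6 dose and the control treatment are not given in the labels. The readout was a log2 signal per gene that the authors centred on the mean of the gene, and 13028 of 19978 protein-coding genes held a value in all 6 libraries. Each difference below is the IL-6 value minus the control value of the same time, a log2 ratio of 2 libraries, so a ratio of 1 is 2-fold. With 1 library a side there was no test and no p-value, and a ratio compares these libraries. The values carry no read counts, so the depth behind them is unknown. In cultures measured in bulk, fewer cells with a transcript and less of it per cell cannot be told apart.

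IL-6 is a cytokine that binds its receptor IL6R together with the signalling chain gp130, the product of IL6ST. Bound gp130 activates Janus kinases, which phosphorylate STAT3, and STAT3 dimers enter the nucleus and bind DNA at palindromes of the form TTCNNNGAA. Known STAT3 targets include its own gene, the feedback inhibitor SOCS3, the kinase PIM1 and the nuclear IkB protein BCL3, and in monocytes the cytokine also acts on acute-phase and migration genes.

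To show how such sites lie before genes of this comparison, promoter windows of RefSeq (GRCh38.p14) were searched for TTCNNNGAA and for its stricter form TTCCNGGAA. Each window runs from 250 bases before a start to 50 bases after it. Both motifs read the same on either strand, and every TTCCNGGAA is also a TTCNNNGAA. The stretches below are written 5′ to 3′ on the strand of the gene and end at the base before the start, with each TTCNNNGAA in capitals. They were picked because 4 of the 5 genes, all but IRF1, were at least 1.5-fold higher with IL-6 at 6 h and hold the motif.
CISH, chr3:50611775-50612024, minus strand: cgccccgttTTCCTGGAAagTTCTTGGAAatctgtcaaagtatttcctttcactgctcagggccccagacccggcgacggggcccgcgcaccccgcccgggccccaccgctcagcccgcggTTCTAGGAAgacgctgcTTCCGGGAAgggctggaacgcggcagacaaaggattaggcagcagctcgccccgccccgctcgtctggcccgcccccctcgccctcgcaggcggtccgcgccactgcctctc
FCGR1A, chr1:149782554-149782693, plus strand: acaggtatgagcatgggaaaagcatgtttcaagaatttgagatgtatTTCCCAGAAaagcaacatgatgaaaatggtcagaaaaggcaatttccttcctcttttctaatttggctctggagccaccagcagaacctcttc
IRF9, chr14:24161125-24161264, plus strand: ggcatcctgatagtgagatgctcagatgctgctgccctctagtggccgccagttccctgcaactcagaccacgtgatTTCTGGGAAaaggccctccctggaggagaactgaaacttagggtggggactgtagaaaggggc
SLC1A3, chr5:36596448-36596587, plus strand: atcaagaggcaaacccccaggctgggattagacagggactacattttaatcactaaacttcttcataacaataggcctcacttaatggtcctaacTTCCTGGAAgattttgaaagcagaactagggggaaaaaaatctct
IRF1, chr5:132490774-132490913, minus strand: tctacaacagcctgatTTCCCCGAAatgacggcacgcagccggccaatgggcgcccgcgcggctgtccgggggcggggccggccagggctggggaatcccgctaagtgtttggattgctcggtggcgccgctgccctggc

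CISH, a SOCS family inhibitor of cytokine receptors, holds 4 matches, which begin at -241, -230, -129 and -112 from the start, those at -241 and -112 in the stricter form. FCGR1A, the high-affinity IgG receptor, holds 1 at -93, IRF9, a transcription factor of the interferon response, 1 at -63, and SLC1A3, a glutamate transporter, 1 in the stricter form at -45. IRF1, another factor of that response, holds 1 at -124 and had a 6 h ratio of -0.09. TTCNNNGAA lay in 7.66% of all 35116 windows and in 6.14% of the 8236 windows of genes measured. Among the genes at least 2-fold higher at 6 h, 13 of 19 had windows, and 1 of their 22 windows held it, that of SLC1A3. For the 4 genes at least 2-fold lower, 1 of 7 windows held it, that of S100PBP. Among genes at least 1.5-fold higher it lay in 14 of 167 windows (8.38%), and among genes at least 1.5-fold lower in 9 of 128 (7.03%). The stricter form lay in 5 of 167 windows of the higher genes (2.99%), 1 of 128 of the lower genes (0.781%) and 1.15% of all windows. The windows of BCL3, PIM1, SOCS3 and STAT3 held neither form. A match is a run of letters and not a measured site.

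Few genes differed by 2-fold at 6 h. Genes were called measured where the mean level of the 2 libraries of 6 h, recovered from the deposited values in an arbitrary unit, was at least 10. Genes for which no level could be recovered were also called measured. Of the 13028 genes, 6869 were measured. IL-6 was at least 2-fold higher for 19 of them (0.277%) and at least 2-fold lower for 4 (0.0582%), and at least 1.5-fold higher for 133 (1.94%) and lower for 102 (1.48%). The median ratio was 0.02, with quartiles of -0.14 and 0.16, and 54.2% of the genes had a ratio above 0.

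No condition was repeated, so the spread of a gene was taken from the other 4 libraries, as the larger of its differences between 24 h and 48 h in control and with IL-6. These differences hold culture time as well as library noise. The 6 h ratio lay outside this spread for 24.5% of all genes measured, with 882 of those higher and 798 lower. It did so for 18 of the 19 genes at least 2-fold higher and for all 4 lower. Between 24 h and 48 h, 41 genes were 2-fold apart in control and 130 with IL-6, against 23 between IL-6 and control at 6 h. A count of 23 is therefore no larger than the count between libraries of 1 agent, and the description below rests on named genes and on families.

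**Figure D1:**
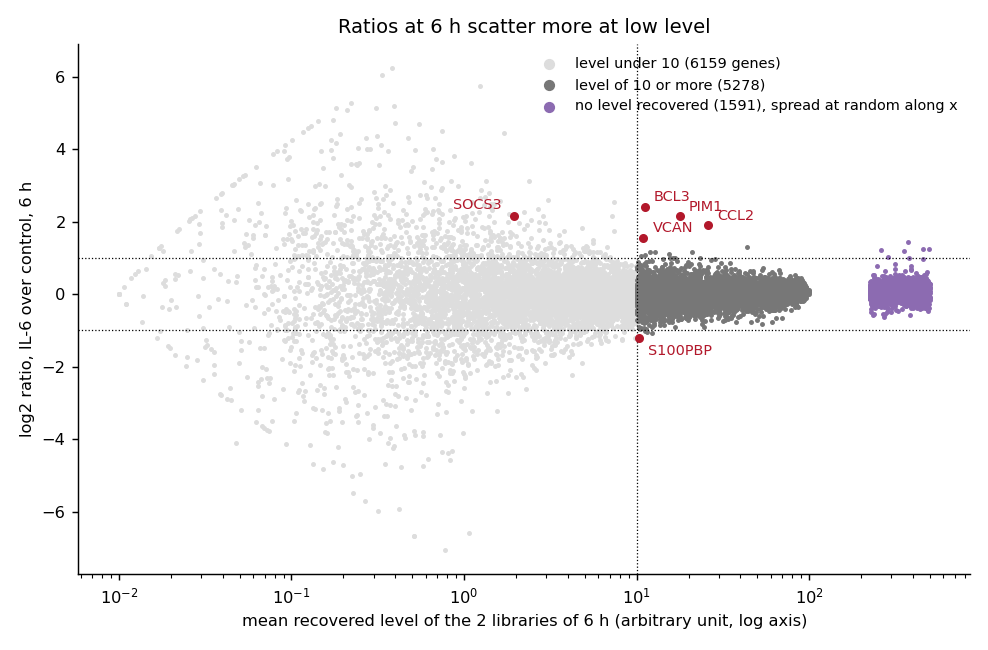
Log2 ratio of IL-6 over control at 6 h (y axis) against the mean recovered level of the 2 libraries of 6 h (x axis, log scale, arbitrary unit), 1 point per protein-coding gene. Grey points are genes with a level, purple points the 1591 genes without one, dotted lines mark 2-fold and the level of 10, and ratios spread widely below that level.

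The scatter of single ratios depended on level. Of 1899 genes with a mean level under 1, 44.1% were 2-fold apart at 6 h. The share was 9.93% of 4260 genes from 1 to under 10, 0.518% of 2895 genes from 10 to under 30, 0.042% of 2383 genes at 30 or more, and 0.44% of the 1591 genes without a recovered level. None of the 20 largest ratios found without the minimum belonged to a measured gene. In 7 of these 20 a library of 6 h stood at the lowest level, which was set to 0.01 to fix the arbitrary unit. H2BC15, a histone gene, is an example: its ratio of 6.24 set a level of 0.754 with IL-6 against that lowest level in control.

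A gene can also pass the minimum through 1 library alone. Of the 19 genes higher, 8 had a control level under 10 (BCL3, PIM1, VCAN, CENPS-CORT, KLF13, DDX21, SERPINA1 and the gene ENSG00000256591), and all 4 genes lower had an IL-6 level under 10. The other 11 genes higher stood at 10 or more in both libraries or had no recovered level, and all 11 were also above 0 at 24 h and 48 h. Beside them, 2969 of all 6869 genes measured were above 0 at 24 h and 2942 at 48 h. The number of all genes above 0 at both times is not given here, so the count of 11 is a description.

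Among the genes measured, the highest ratios at 6 h belonged to BCL3 and PIM1. BCL3 (chr19:44747705-44760044) encodes a nuclear IkB protein that binds p50 and p52 of NF-kB. Its deposited values at 6 h, 24 h and 48 h were -1.93, -1.34 and -0.46 in control and 0.48, 1.28 and 1.96 with IL-6. Every IL-6 library was above every control library, and both agents had their lowest value at 6 h. The ratio at 6 h was 2.41 (5.31-fold), beside 2.62 at 24 h and 2.42 at 48 h, and the within-agent differences were 0.87 and 0.68. PIM1 (chr6:37170152-37175428) encodes a serine/threonine kinase of cell survival. Its control values were -1.26, -1.60 and -1.14, and its IL-6 values were 0.89, 1.15 and 1.96. The groups did not overlap, and the ratio was 2.15 at 6 h (4.45-fold), followed by 2.76 and then 3.09. The libraries of an agent are of different times and are not replicates. How many of all genes measured also had no overlap between the agents, here and for the genes below, is not given, so this is a description.

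**Figure D2:**
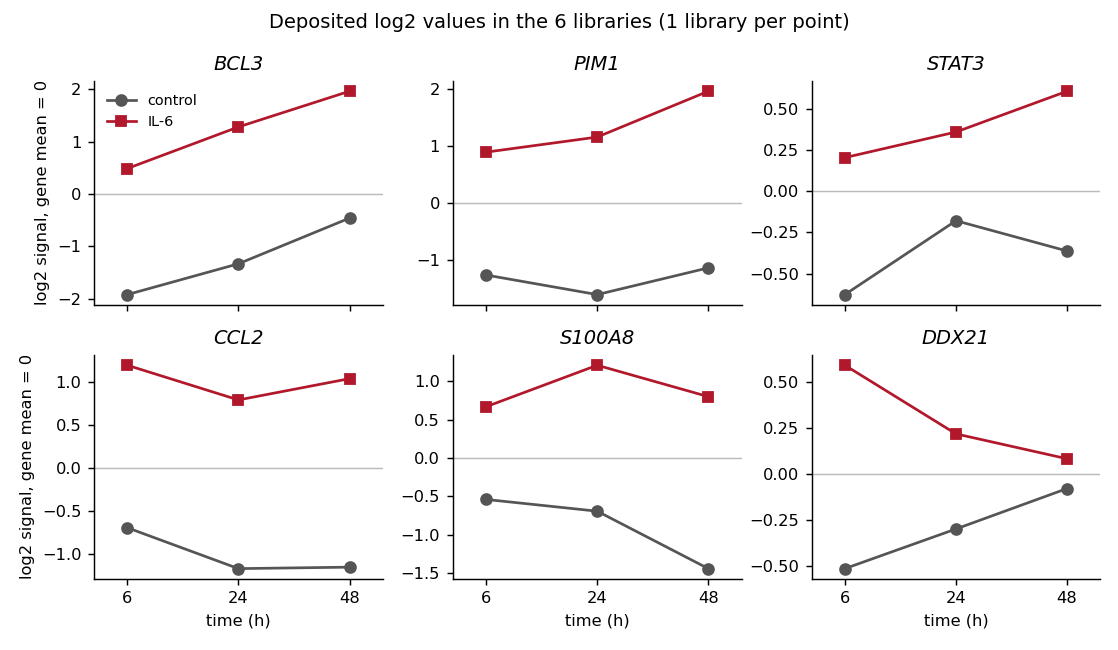
Deposited log2 values (y axis, mean of each gene over 6 libraries at 0) of 6 genes at 6, 24 and 48 h (x axis), grey circles for control and red squares for IL-6, 1 library per point. In each panel the IL-6 libraries lie above the control libraries; DDX21 is the gene whose gap is widest at 6 h and narrows to 0.16 at 48 h.

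The list of STAT3 targets and feedback genes held 40 genes, of which 33 had 6 values and 22 were measured. Of the 22, 17 had a ratio above 0 at 6 h, against 54.2% of all genes measured. Among the 22, 2 were at least 2-fold higher (BCL3 and PIM1), 6 at least 1.5-fold higher and none at least 1.5-fold lower. The median was 0.30, beside 0.02 over all genes measured. Of the 22, 8 were higher outside their spread, beside 882 of all 6869 genes measured. At 24 h 13 of the 22 were above 0 with a median of 0.10, and at 48 h 19 with a median of 0.22. Over all genes measured 2969 of 6869 were above 0 at 24 h and 2942 at 48 h, with medians of -0.05 and -0.04. BCL3 and PIM1 had passed the level minimum only through the IL-6 library, and with a level of at least 10 in each library the list held 20 genes, none of them 2-fold apart, with a median of 0.27. Measured members next in order were STAT3 itself at 0.83, JUNB at 0.66, FCGR1A at 0.66, CISH at 0.61, FOS at 0.50, the kinase PIM3 at 0.48, MYC at 0.45, and CEBPD and HP at 0.31. ZFP36, a decay factor of AU-rich mRNAs, was at 0.29, CEBPB at 0.24, and TFRC and TNFRSF1A at 0.22. CCND1 at 0.05, MCL1 at 0.04, TIMP1 at -0.06, IRF1 at -0.09, HIF1A at -0.13, PIM2 at -0.19 and VEGFA at -0.27 made up the rest.

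STAT3 had control values of -0.63, -0.18 and -0.36 and IL-6 values of 0.20, 0.36 and 0.61 at 6, 24 and 48 h. The IL-6 libraries lay above all control libraries, and the 6 h ratio of 0.83 was larger than the differences of -0.18 and 0.25 between 24 h and 48 h. JUNB, an AP-1 subunit, had control values of -0.57, -0.11 and 0.02 and IL-6 values of 0.09, -0.03 and 0.60. Its gap was 0.66 at 6 h and 0.08 at 24 h, and its IL-6 value of 24 h lay below the control value of 48 h. The ratios of CISH, FOS, PIM3, MYC and HP were inside the spread of each gene.

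Targets below the level minimum are given with their levels. SOCS3, the feedback inhibitor that binds gp130, had levels of 0.717 in control and 3.20 with IL-6, a ratio of 2.16, beside 1.39 at 24 h and 4.06 at 48 h. Its control values were -1.26, -0.80 and -1.75 and its IL-6 values 0.90, 0.59 and 2.31, so the groups did not overlap. ICAM1, an adhesion molecule, had levels of 0.0452 and 2.43 at 6 h, and its ratio of 5.75 there was followed by 0.11 at 24 h and 3.12 at 48 h. IL4R had ratios of 1.42, 0.63 and 1.08 at the 3 times, with levels of 3.02 and 8.10 at 6 h. NFKBIZ, another nuclear IkB protein, was at 1.12 (levels of 2.39 and 5.18). IL6ST at 0.12, BCL2L1 at 0.09, SBNO2 at 0.06, BCL6 at -0.11 and PRDM1 at -0.46 were closer to 0.

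All 8 SOCS family genes had 6 values, and only CISH was measured. SOCS1, which blocks Janus kinases directly, had a ratio of 1.10 from levels of 0.696 and 1.49, and -0.40 and 0.55 at the later times. SOCS2 was at 0.53, SOCS6 at 0.42, SOCS5 at 0.32, SOCS7 at 0.30 and SOCS4 at -0.06. The 7 that were not measured have mean levels between 1 and 10, where 9.93% of genes were 2-fold apart.

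The receptor and its pathway differed less than the targets. Of 28 listed components of the IL-6 receptor and JAK-STAT pathway, 26 had 6 values and 19 were measured. Of these 10 were above 0, none was 2-fold apart, and the median was 0.06 (-0.09 with no level minimum). IL6R was at -0.04, with control values of -0.12, 0.29 and 0.25 and IL-6 values of -0.16, -0.25 and 0.00. The kinase JAK1 was at -0.26 and TYK2 at 0.06, and JAK2, just below the minimum, at -0.25. STAT2 was at 0.09, STAT6 at 0.11 and STAT5B at -0.14, all inside their spread. After STAT3, the measured members with the largest ratios in size were PIAS2 at 0.63, PIAS3 at -0.55, both SUMO ligases of the STAT pathway, and ADAM10 at -0.54, a sheddase. GAB1, a docking protein with a mean level of 0.469, was at -1.38.

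Immediate early transcription factors are switched on quickly and briefly by many stimuli. Of 23 listed, 19 had 6 values and 10 were measured, of which 6 were above 0 with a median of 0.21 (-0.12 with no level minimum). JUNB, FOS, FOSL1 and MYC were at 0.66, 0.50, 0.48 and 0.45, JUN at 0.23 and JUND at 0.18. IER2 at -0.12, KLF10 at -0.15, FOSL2 at -0.31 and KLF6 at -0.44 were below 0. Below the minimum KLF4, a factor of monocyte differentiation, had a ratio of 0.998 (levels of 2.18 and 4.35), and 0.62 and 0.63 later. ATF3 was at 0.94, IER5 at 0.07, EGR1 at -0.22, KLF2 at -0.36, NR4A2 at -1.08, NR4A1 at -1.09, EGR4 at -2.69 and EGR3 at -3.20. The last 4 had mean levels under 1 and ratios inside their spread.

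A chemokine gene and a matrix gene were also among the genes at least 2-fold higher. CCL2 (chr17:34255218-34257203), the monocyte chemoattractant MCP-1, had control values of -0.70, -1.18 and -1.16 and IL-6 values of 1.20, 0.79 and 1.04. The 3 IL-6 libraries were above all controls, and the ratio was 1.90 at 6 h (3.72-fold), followed by 1.97 and then 2.20. Of the other measured chemokines, CCL5 was at 0.03 and CCL23 at -0.16. VCAN, the matrix proteoglycan versican, had control values of -0.62, -0.53 and -1.89 and IL-6 values of 0.93, 1.14 and 0.97. Its ratio was 1.55 at 6 h and 2.87 at 48 h, where the control was lowest.

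S100A8 and S100A9 encode the 2 chains of calprotectin, a calcium-binding protein of myeloid cells. S100A8 had control values of -0.54, -0.69 and -1.44 and IL-6 values of 0.67, 1.21 and 0.80. Its ratio was 1.21 at 6 h (2.31-fold), and S100A9 was at 0.98. At 24 h they were at 1.90 and 2.15, and at 48 h at 2.23 and 2.26. S100A12 was at 0.48 at 6 h, inside its spread, and at 2.49 and 3.16 later. The other 5 measured S100 genes lay between -0.18 and 0.02 at 6 h, and the list of 8 had a median of 0.01, or -0.07 relative to the medians of the length classes. SERPINA1, the antitrypsin gene, was at 1.04 at 6 h, next to a within-agent difference of 1.02, and at 2.98 at 48 h.

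The Fc receptor FCGR1B was at 1.20 and FCGR1A at 0.66, with ratios of 1.29 and 0.68 at 24 h and 1.17 and 0.61 at 48 h. They are near-identical copies, so reads could be split between them in counting, and the value of each is uncertain. LAP3, a leucine aminopeptidase known to respond to interferon-gamma, was at 1.26, 1.55 and 1.47 at the 3 times. HSD11B1, which turns cortisone into cortisol, was at 1.25, 2.16 and 1.81, and METTL7B at 1.45, 1.20 and 1.30. LAP3 had within-agent differences of -0.07 and -0.15, the smallest spread of the 22 genes in the plot of genes outside their spread.

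GCA, SLC1A3 and KLF13 had a higher ratio at 6 h than at the later times. GCA, encoding the calcium-binding protein grancalcin, had control values of -0.56, -0.28 and -0.39 and IL-6 values of 0.75, 0.10 and 0.37. Its ratio was 1.31 at 6 h, followed by 0.38 and then 0.75. SLC1A3 was at 1.15, 0.54 and 0.45, and its 6 h IL-6 value of 1.12 was its highest of the 6. KLF13, a zinc-finger transcription factor, was at 1.15, 0.61 and -0.42. ENSG00000256591 was at 1.09, -0.08 and 0.29. MT-ATP8, CHCHD7 and FLOT1 stood just inside the 2-fold line at 1.01, and DUS2 at 0.995, POLR1G at 0.99 and RFK at 0.99 just outside it. At 24 h and 48 h MT-ATP8 was at 0.28 and 0.01, CHCHD7 at 0.95 and 0.56, and FLOT1 at 0.65 and 1.51. MT-ATP8 overlaps MT-ATP6 in the mitochondrial genome. CENPS-CORT, at 1.15 and later at 1.55 and 0.58, is a read-through gene that shares exons with its neighbours, and was the gene of the 19 inside its spread.

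**Figure D3:**
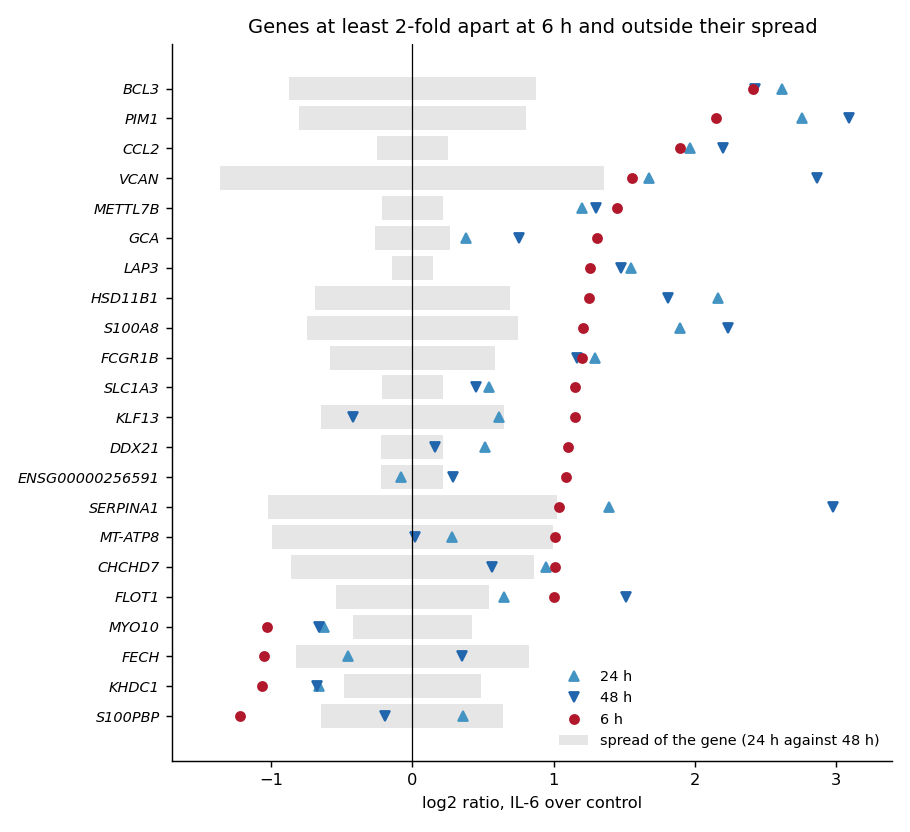
Log2 ratio of IL-6 over control (x axis) for the 22 genes (y axis) at least 2-fold apart at 6 h and outside their spread; red circles are 6 h, light triangles 24 h and dark triangles 48 h, and grey bars reach from minus to plus the spread. The 6 h points run from -1.22 for S100PBP to 2.41 for BCL3.

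The 4 genes lower were S100PBP, KHDC1, FECH and MYO10. S100PBP, a binding partner of an S100 protein, had control values of 0.24, -0.18 and 0.47 and IL-6 values of -0.98, 0.18 and 0.27. Its 6 h ratio of -1.22 was followed by 0.36 and -0.20, and the low value was that of the IL-6 library of 6 h. FECH, the enzyme that inserts iron into haem, was at -1.05, -0.46 and 0.35. KHDC1 was at -1.07, -0.66 and -0.67, and the myosin MYO10, which builds filopodia, at -1.03, -0.63 and -0.66. KHDC1 and MYO10 were lower in each IL-6 library than in the control of the same time. ABCC6 at -0.96, AKAP7 at -0.96 and SLC35D2 at -0.92 stood just outside the line.

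Genes of ribosome biogenesis had ratios above 0 at 6 h for every measured member. The list of MYC and ribosome biogenesis held 47 genes, which encode nucleolar helicases, RNA polymerase I subunits, snoRNP proteins and assembly factors. Of the 44 measured, 44 were above 0 at 6 h, against 54.2% of all genes. Their ratios ran from 0.03 to 1.10 with a median of 0.30, and 1 was at least 2-fold and 4 at least 1.5-fold higher. The 1 was DDX21, which had passed the level minimum only through the IL-6 library, with a control level of 9.84. With a level of at least 10 in each library the list held 41 genes, none of them 2-fold apart, with a median of 0.30. Of the 44, 22 were outside their spread, against 24.5% of all genes measured. At 24 h 26 of the 44 were above 0 with a median of 0.02, and at 48 h 16 with a median of -0.04, beside medians of -0.05 and -0.04 over all genes measured. The medians of the within-agent differences were 0.00 in control and -0.01 with IL-6.

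DDX21, a nucleolar RNA helicase, had control values of -0.51, -0.30 and -0.08 and IL-6 values of 0.59, 0.22 and 0.08. Its control library of 6 h was its lowest value and its IL-6 library of 6 h its highest, and the ratio went from 1.10 to 0.51 and 0.16. POLR1G, an RNA polymerase I subunit, was at 0.99, 1.08 and -0.47. UTP15, of the small-subunit processome, was at 0.61, RRP9, of the U3 snoRNP, at 0.59, the nucleolar GTPase GNL3 at 0.49, and NIP7 and GAR1 at 0.48. DKC1, which makes pseudouridine, was at 0.46, POLR1B at 0.42, NOP56 at 0.31, nucleolin (NCL) at 0.30 and fibrillarin (FBL) at 0.26. MYC, the factor whose targets these genes are known to be, was at 0.45 at 6 h, followed by -0.18 and then 0.10.

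**Figure D4:**
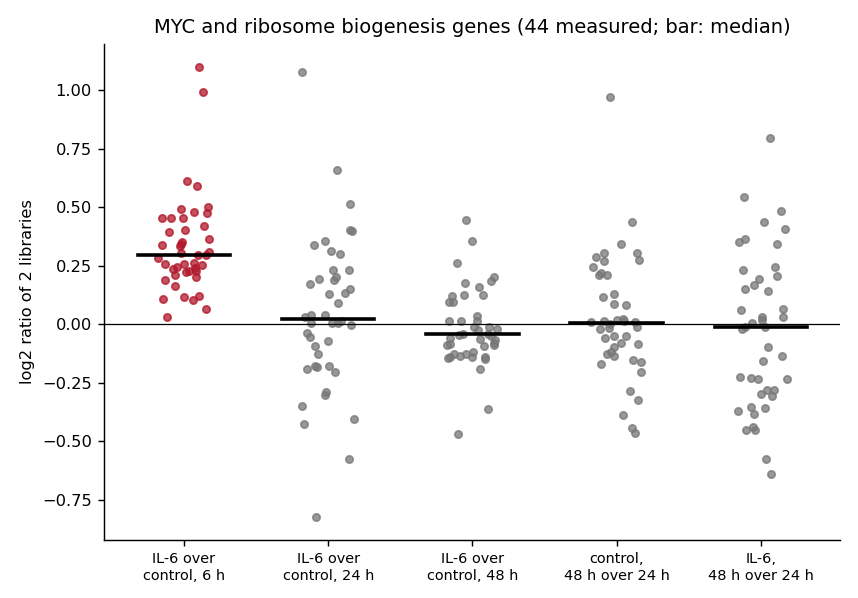
Log2 ratios (y axis) of the 44 measured MYC and ribosome biogenesis genes in 5 pairs of libraries (x axis), IL-6 over control at 6 h in red, the other pairs in grey, black bars at the medians. All points at 6 h lie above 0; the other 4 pairs have medians between -0.04 and 0.02.

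Ribosomal proteins and mitochondrial transcripts were also mostly above 0 at 6 h. The share above 0 was 54.2% over all genes measured and 68.7% over those of up to 1500 bases. Of 78 cytosolic ribosomal protein genes, 74 were above 0 with a median of 0.15, the highest being RPL38 at 0.52 and RPS29 at 0.42, but only 3 were outside their spread. The same list had medians of 0.12 at 24 h and -0.22 at 48 h, and with IL-6 it was -0.49 between 24 h and 48 h. Of 13 genes encoded in mitochondrial DNA, 12 were above 0 with a median of 0.18, led by MT-ATP8 at 1.01 and MT-ND3 at 0.38. Only 2 of the 13 were outside their spread, against 24.5% of all genes measured. This list had medians of 0.31 at 24 h and -0.14 at 48 h, and with IL-6 it was -0.38 between 24 h and 48 h. Of 22 measured cytosolic heat shock chaperones 18 were above 0 with a median of 0.16, among them the co-chaperone CHORDC1 at 0.60 and HSPE1 at 0.48. The lowest ratio among these chaperones was -0.47, and their medians were 0.00 at 24 h and -0.14 at 48 h.

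Gene length moved with the ratio. Genes of up to 1500 bases had a median of 0.08 at 6 h and 68.7% above 0 (792 genes), those above that and up to 3000 bases 0.04 (2255), then up to 6000 bases 0.00 (2777), and over 6000 bases -0.01 (1045). Relative to the median of its own length class, ribosome biogenesis had a median of 0.27, ribosomal proteins 0.12 and the mitochondrial genes 0.10. The part of length in the single ratios was not tested.

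Inflammatory cytokines had the highest median of the 49 lists with at least 5 measured genes, 0.38, but only 6 of 26 listed genes were measured, 5 of them above 0. TNFSF10, the death ligand TRAIL, was at 0.57, TNFSF13B, the B cell factor BAFF, at 0.40, TNFSF13 at 0.39 and the interleukin-1 antagonist IL1RN at 0.38. IL1B and TNF were below the level minimum. With a level minimum of 1 the median was 0.17 over 13 genes. The list had a median of -0.03 at 24 h and 0.10 at 48 h.

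Interferon genes were mixed. Of 11 measured interferon-stimulated genes, of 41 listed with 6 values, 8 were above 0 with a median of 0.07, led by IFITM1, an antiviral membrane protein, at 0.68. IFITM1 was at 1.68 and 1.38 at the later times. The members next in size at 6 h were PARP10 at -0.54, DDX60L at 0.38 and XAF1 at -0.38. With a level minimum of 1 the median of this list was -0.19. IRF9 had control values of -0.72, -0.12 and 0.22 and IL-6 values of -0.11, 0.27 and 0.46, and its 6 h ratio was outside its spread. Among the other measured interferon regulatory factors, IRF5 was at -0.36 and IRF8 at -0.27. The phosphatase DUSP6, a brake on ERK, was at 0.67 at 6 h, followed by -0.86 and then -0.30.

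Lysosomal, class II and cAMP genes were mostly below 0 at 6 h, where 54.2% of all genes measured were above 0. Of 22 measured lysosomal cathepsins and hydrolases 3 were above 0 with a median of -0.14. Of the 22, 4 were outside their spread, against 24.5% of all genes measured. GAA, which breaks down glycogen in lysosomes, was at -0.37. Of 9 measured genes of MHC class II presentation 2 were above 0 with a median of -0.18, with HLA-DQB1 at -0.37, the factor RFX5 at -0.35 and HLA-DRA at -0.22. The class II list had a median of -0.43 at 24 h and -0.20 at 48 h. The list of cAMP signalling and prostaglandin E2 receptors had the lowest median of the 49 lists with at least 5 measured genes, -0.19. Of its 16 measured genes 4 were above 0 and 3 at least 1.5-fold lower, against 1.48% of all genes measured. With a level minimum of 1 the median of the list was -0.07 over 26 genes, and with none -0.05 over 29.

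AKAP7, an anchor of protein kinase A, had control values of 0.66, 0.71 and 0.64 and IL-6 values of -0.30, -0.89 and -0.82. All controls lay above all IL-6 libraries, and the ratio was -0.96 at 6 h, followed by -1.60 and then -1.46. The cyclase ADCY7 was at -0.67, inside its spread, the phosphodiesterase PDE3B at -0.59 and PRKAR1B at -0.40. SLC40A1, the iron exporter ferroportin, was at -0.66, -0.73 and -0.63 at the 3 times, and TIRAP, an adaptor of Toll-like receptors, at -0.86, -0.42 and -0.44. CD14, a co-receptor for lipopolysaccharide, was at 0.71 at 6 h, inside its spread, followed by 1.74 and then 3.76.

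**Figure D5:**
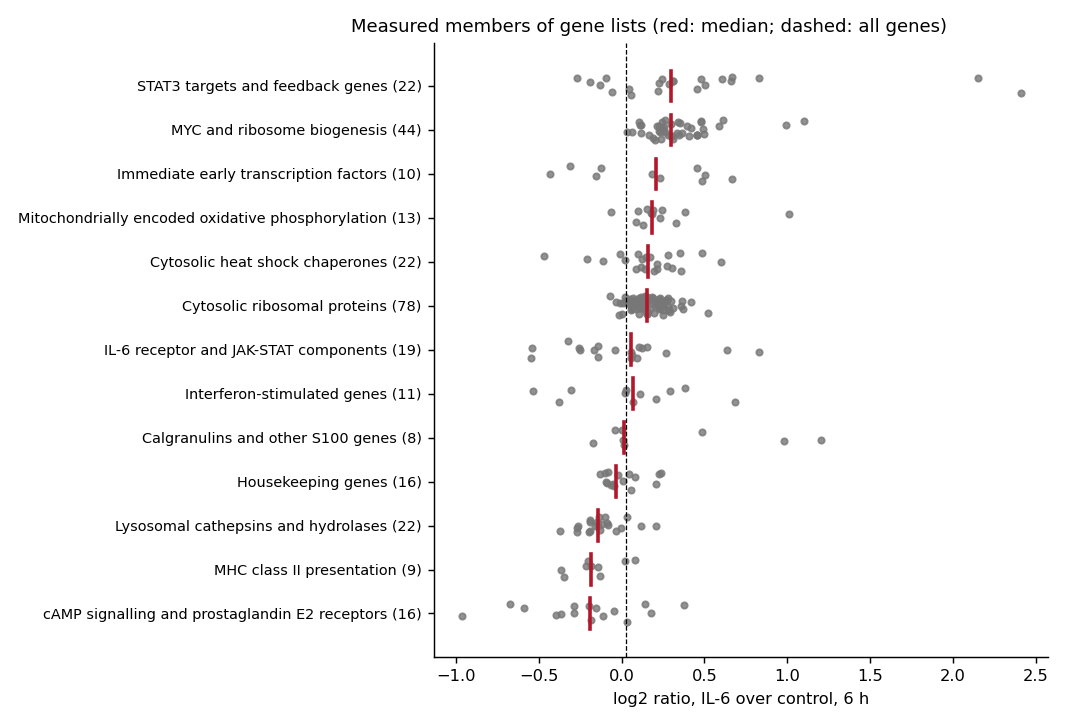
Log2 ratio of IL-6 over control at 6 h (x axis) for the measured members of 13 gene lists (y axis, number measured in brackets), 1 grey point per gene, red bars at the list medians and a dashed line at the median of all genes measured, 0.02. Medians run from 0.30 for STAT3 targets to -0.19 for cAMP signalling.

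Part of the 6 h differences was seen again later. Of the 18 genes at least 2-fold higher and outside their spread, 16 were above 0 at both 24 h and 48 h. Over all 6869 genes measured, 2969 were above 0 at 24 h and 2942 at 48 h. How many were above 0 at both times is not given here. Of the 18, 7 had passed the level minimum only through the IL-6 library of 6 h, so the count is a description. At the lower threshold of 1.5-fold, 133 of the 6869 genes were higher at 6 h and 102 lower. Of the 133, 23 were higher at all 3 times and outside their spread. Of the 102, 4 were lower at all 3 times and outside their spread, namely SLC40A1, AKAP7, MYO10 and KHDC1. MYO10, KHDC1 and AKAP7 (mean level of 11.3) had passed the level minimum only through the control library of 6 h. The 23 include BCL3, PIM1, VCAN and SERPINA1, which had passed it only through the IL-6 library. Both counts are therefore also a description. The pairs of the 3 times share no library, but the spread uses the 4 libraries of the later times. How many of all genes measured were 1.5-fold apart at both later times is not given here. The 23 include, beside genes named above, CYP1B1, a cytochrome of oestrogen and arachidonate metabolism, at 0.97, the inflammasome sensor NAIP at 0.80, the scramblase PLSCR1 at 0.73 and ARRDC4 at 0.68.

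The labelled cell line was checked against markers. Of 11 monocyte markers 9 were measured, with 6 h ratios from -0.22 to 0.71, and FCN1 had no value in either library of 6 h. Of 7 markers of T and NK cells NKG7 was measured, at 0.19, outside its spread, and at 0.87 and 0.89 at 24 h and 48 h. CD2, CD3E and CD3G had no value at 6 h. Of 7 erythroid and platelet markers none was measured, and the haemoglobin genes HBA1, HBA2 and HBB had no value. None of 5 B cell and of 7 epithelial and fibroblast markers was measured. Of 5 neutrophil markers CAMP was measured, at 0.23. Longer lists held 1 measured of 10 B cell genes, BANK1 at -0.31, outside its spread, and 3 of 11 neutrophil genes, which were CAMP, CSF3R at -0.17 and CXCR2 at -0.19.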

How the data were processed

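RNA of THP-1 cells from 1 control and 1 IL-6 culture at each of 6 h, 24 h and 48 h was sequenced, per the labels' protocols from SMART-seq v4 cDNA with Nextera XT libraries on a NovaSeq 6000. The deposited values are log2 signals per gene, which the authors centred on the mean of each gene. The build is GRCh38 (hg38), per the submitters' processing notes, and no source used here gives the aligner, the counter or the normalization. Whether the cultures were repeated is not given in the labels.

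Ratios are differences of the deposited values between IL-6 and control. After 1 offset per library, the values of most genes stand in whole-number ratios, which gave a level in an arbitrary unit. It served as a filter: a mean of at least 10 over the 2 libraries of 6 h, with genes whose level could not be recovered kept. The level also set the classes of level and the plot of ratios against level, and took the pseudocount of 1. The method of recovering levels was tested on simulated data. Levels are not shown to be per length, although the minimum, the classes and the plot put all genes with a level on the same scale. The spread of a gene is the larger of its 24 h to 48 h differences in size. Gene symbols are those of the deposited tables, and promoter windows came from RefSeq, where 5683 of the 6869 genes measured matched by symbol.

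Named genes are those at least 2-fold apart and outside their spread (up to 20 higher and 12 lower) and the 5 highest and 5 lowest ratios. To these come the SOCS, STAT3 target and immediate early lists and the 3 genes on either side of the 2-fold line. Of the 4 largest ratios in size of each other list described, some are named and others are not. Any further gene was chosen after its values were seen. Some results are not reported here. The genes, the 56 gene lists and the comparisons were chosen with earlier results of these data known. Python 3.11.15, pandas 2.3.3 and numpy 2.4.6 were used. Alternatives were other level minimums, equal library medians, a pseudocount of 1, leaving out genes without a level, all gene types, and 2 chosen after seeing the data.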

Additional observations from a re-analysis of the deposited data

How the results depend on the processing

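The number of genes 2-fold apart depended on the level minimum. With a minimum of 1 there were 199 higher and 247 lower, with a minimum of 30 there were 8 and 0, and with no minimum 607 and 676. A level of at least 10 in each library of 6 h, chosen after seeing the data, left 11 higher and 0 lower. Leaving out genes without a recovered level gave 12 higher, all gene types 29 higher, and a pseudocount of 1 gave 1 lower. The median of ribosome biogenesis, 0.30, was 0.28 at a minimum of 30 and 0.27 relative to the median of the length class, the other alternative chosen after seeing the data. The median of STAT3 targets lay between 0.24 and 0.31 under all alternatives run. Of 160 single ratios none changed sign under equal library medians or the length classes, nor did any of the 127 that could be given with the pseudocount. Of 25 list medians, 2 changed sign at a minimum of 1, 4 with no minimum, 1 without unrecovered levels and 1 relative to the length class, where the S100 list went from 0.01 to -0.07. The cause of these shifts was not tested. No paired analysis was possible because the comparison at 6 h has 1 library a side. Depth is unknown, so the error of a single ratio could not be given.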

Other observations

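The gene families below were picked after their values were seen and are given as values only, beside the 54.2% of all genes measured, and 68.7% of those up to 1500 bases, with a ratio above 0 at 6 h. Of 78 measured mitochondrial ribosomal protein genes (MRPL and MRPS), 69 had a ratio above 0 at 6 h with a median of 0.17, beside 62 at 24 h and 20 at 48 h. Relative to the median of the length class 59 of the 78 were above 0 at 6 h. All 11 measured LSM genes, whose proteins bind the ends of small nuclear RNAs and of mRNAs in decay, were above 0 with a median of 0.18. At 24 h 9 of the 11 were above 0, and at 48 h 2. Of 23 TOMM and TIMM genes of mitochondrial protein import 19 were above 0 with a median of 0.21, and of 10 EXOSC genes of the RNA exosome 8, with a median of 0.16. The counts at 24 h and 48 h were 17 and 5 for TOMM and TIMM, and 6 and 3 for EXOSC. On the other side, 1 of 8 myosins (MYO) was above 0 with a median of -0.30, and 1 of 10 palmitoyltransferases (ZDHHC) with a median of -0.20. Their counts above 0 at 24 h and 48 h were 0 and 5 for the myosins, and 4 and 5 for the palmitoyltransferases.

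Among 368 measured genes of other types, 10 were at least 2-fold higher and 2 lower at 6 h, of which 2 and 1 were outside their spread. The long noncoding RNA LINC00662 was at 1.07. FCGR1CP, a pseudogene copy of the Fc receptor genes FCGR1A and FCGR1B, was at 1.04 at 6 h, followed by 1.32 and then 1.21. The pseudogene ANAPC1P2 was at -1.18.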
